A study of Mus musculus with 18 samples.

Results

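The 32 genes described here encode enzymes of cholesterol synthesis, the SREBP transcription factors that control them and the proteins that hold these factors back, and proteins that move, store or export cholesterol. They were chosen by name from the 35275 genes of a read-count table: 5 regulators, 18 synthesis enzymes, 4 genes of transport and storage, and 5 genes of the liver X receptors (LXR) and their targets. The counts came from RNA-seq of 6 murine malignant peripheral nerve sheath tumor (MPNST) cell lines. 3 lines had *Nf1* and *p53* (*Trp53*) deleted (*Nf1*/*p53* dKO) and 3 had *Nf1* and *Cdkn2a* deleted (*Nf1*/*Cdkn2a* dKO), with 3 cultures per line and 18 cultures in all. Each line was grown from a separate tumor, raised in a wild-type 129 Sv/Jae mouse by injecting its sciatic nerve with adenovirus that carries guide RNAs and Cas9 behind a CMV promoter, which is active in many cell types. The cells were untreated and grew in medium with fetal bovine serum, which supplies lipoprotein cholesterol. *Nf1* loss is shared by both genotypes and no unedited nerve cells were part of the comparison, so every difference below is between genotypes or between lines.

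Animal cells make cholesterol from acetyl-CoA through mevalonate, squalene and lanosterol, in a long series of steps in the cytosol and the endoplasmic reticulum. When the endoplasmic reticulum membrane holds much cholesterol, INSIG proteins retain the complex of SCAP and SREBP there. When it holds little, SCAP carries SREBP to the Golgi, where proteases release the part that enters the nucleus and switches on the synthesis enzymes together. Oxysterols act in the opposite direction through LXR, which induces the cholesterol exporters ABCA1 and ABCG1 and the ubiquitin ligase MYLIP (IDOL). Transcript levels report on none of the protein steps of this circuit.

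Total counts ranged from 19560535 to 28312207 per culture and from 65206479 to 73065228 per line, after the 3 cultures of a line were summed. All 32 genes passed the filter on low counts. Culture 1 of *Nf1*/*Cdkn2a* dKO line 1 stood apart from its sister cultures. Its chi-square per degree of freedom against them was 26.5 and 29.2, while the other pairs of sister cultures lay between 3.57 and 13.8. Comparisons of the *Nf1*/*Cdkn2a* dKO lines and counts between the genotypes are therefore also given without it. *Trp53* was at 94.1, 67.5 and 58.7 CPM (counts scaled to 1000000 per line) in *Nf1*/*p53* dKO lines 1, 2 and 3 and at 247, 246 and 185 CPM in *Nf1*/*Cdkn2a* dKO lines 1, 2 and 3 (log2 fold change 1.62 ± 0.23, adjusted p = 0.0361, edgeR), in the direction of its label. *Nf1* (12.7 to 70 CPM) and *Cdkn2a* (42.9 to 392 CPM) transcripts were counted in all 6 lines, and neither was called between the genotypes (adjusted p = 0.328 and 0.83, edgeR). A guide RNA leaves small insertions or deletions, and a transcript with one is still counted, so these levels do not check the deletions. The labels call the cells mesenchymal, and all 8 mesenchymal markers were detected, with a summed level of 9850 to 23400 CPM per line. The Schwann cell regulator *Sox10* was at or below 0.099 CPM in every line. The 7 Schwann cell markers summed to 1.48 to 74.7 CPM per line. The highest sum was in *Nf1*/*p53* dKO line 2, mostly from *Ngfr* at 64.3 CPM.

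The first comparison asked whether the cholesterol genes differ between the genotypes. None of the 32 genes was called at an adjusted p under 0.05 (edgeR quasi-likelihood test on 3 against 3 lines, adjusted over 15207 genes), where 1.8% of all genes were called. At an unadjusted p under 0.05 there were 4, or 12.5%, which is below the 22.4% of all genes. These were *Fdft1*, *Scap*, *Hmgcs1* and *Sc5d*, all at a higher level in the *Nf1*/*Cdkn2a* dKO lines. With DESeq2 on the same 6 line sums 2 members were called, where 14.4% of all genes were, namely *Fdft1* (adjusted p = 0.00675) and *Scap* (adjusted p = 0.0177). With limma-voom on the 18 cultures and line as a random effect 6 were called, where 16.6% of all genes were, namely the same 2 and *Hmgcs1*, *Msmo1*, *Hsd17b7* and *Sc5d* (adjusted p from 0.00607 to 0.0455). The fitted log2 fold change was above 0 for 23 of the 32 genes and for 48.2% of all genes, and its median was 0.19 over the members and -0.02 over all genes tested. Scaling by total counts moved both medians, to 0.05 and -0.16, with 20 members above 0. The median of the 18 enzymes, also 0.19, was 0.52 without *Nf1*/*p53* dKO line 1 and 0.04 without *Nf1*/*p53* dKO line 3. Without culture 1 of *Nf1*/*Cdkn2a* dKO line 1 both medians were again 0.19, and no member was called.

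**Figure D1:**
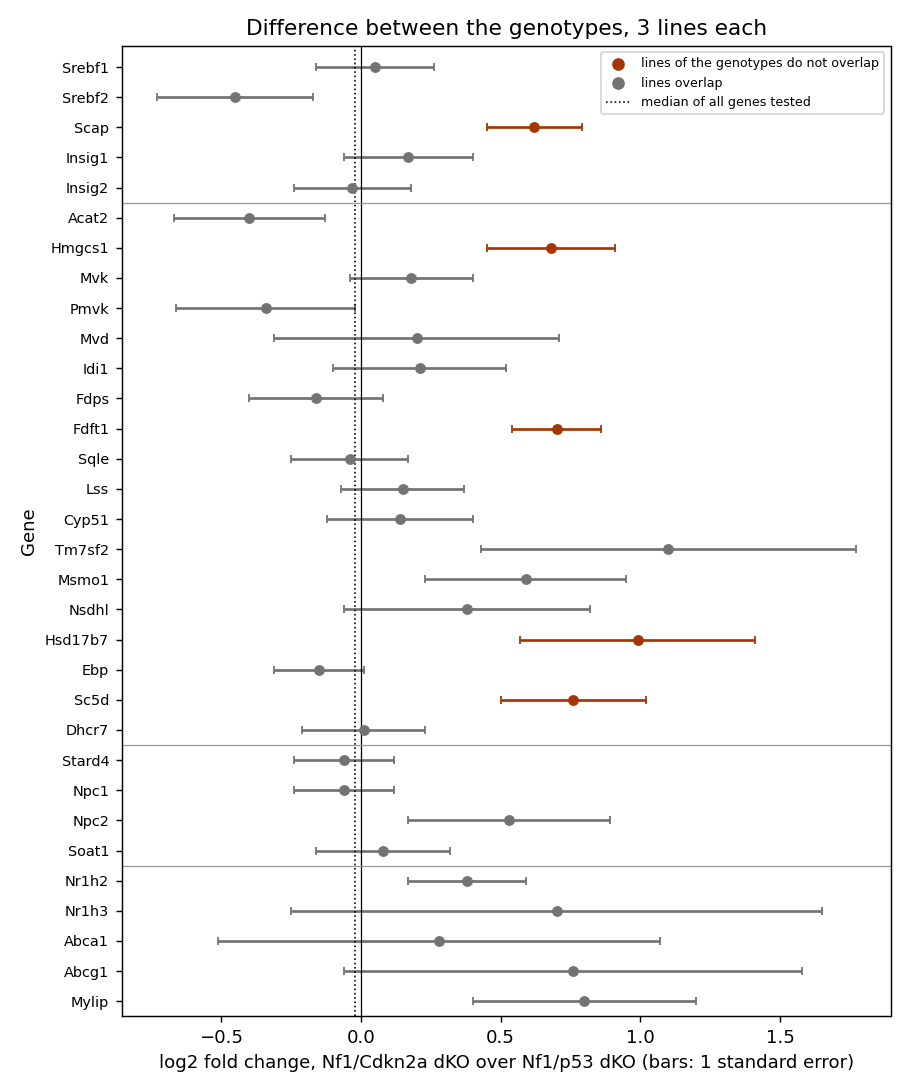
Fitted log2 fold change of each gene, *Nf1*/*Cdkn2a* dKO over *Nf1*/*p53* dKO, with 1 standard error on either side (horizontal axis, genes on the vertical axis in the order regulators, enzymes, transport and storage, LXR and efflux). The 5 genes in orange, whose lines do not overlap between the genotypes, lie between 0.62 and 0.99, and most of the other bars cross 0.

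In 5 genes all 3 lines of one genotype lay above all 3 of the other, each time with the *Nf1*/*Cdkn2a* dKO lines higher. That is 15.6% of the members, where 31.4% of all genes did not overlap, 14.8% with the *Nf1*/*Cdkn2a* dKO higher and 16.6% with it lower. An exact permutation test of 3 against 3 lines cannot go below p = 0.1, which is its value for each of these genes. *Scap*, the sterol sensor that escorts SREBP (chr9:110333288-110384950, GRCm38), was at 75.4, 59.3 and 72.1 CPM in *Nf1*/*p53* dKO lines 1, 2 and 3 and at 89, 116 and 113 CPM in their *Nf1*/*Cdkn2a* dKO counterparts (log2 fold change 0.62 ± 0.17 SE, adjusted p = 0.0992, edgeR). *Fdft1* (chr14:63145150-63179578), squalene synthase and the first step committed to sterols, was at 61.7, 65 and 73.5 CPM against 88.3, 121 and 116 CPM (0.70 ± 0.16, adjusted p = 0.0811, edgeR), the lowest adjusted p of the 32 genes. Both genes were lowest, among the *Nf1*/*Cdkn2a* dKO lines, in line 1.

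The other 3 are enzymes. *Hmgcs1* (chr13:119690379-119708260), which makes HMG-CoA, was at 185, 124 and 116 CPM against 191, 232 and 259 CPM (log2 fold change 0.68 ± 0.23, adjusted p = 0.152, edgeR). The gap between the nearest lines was small, and the genotypes overlapped with total counts, with upper-quartile factors and without culture 1 of *Nf1*/*Cdkn2a* dKO line 1. *Hsd17b7* (chr1:169949535-169969241), a ketosteroid reductase of the demethylation steps after lanosterol, was at 62.6, 46.2 and 18.8 CPM against 69.1, 92.5 and 90.9 CPM (0.99 ± 0.42, adjusted p = 0.228, edgeR), and overlapped with total counts. *Sc5d* (chr9:42251595-42264256), the sterol desaturase near the end of the pathway, was at 76.1, 66.9 and 39.3 CPM against 86, 111 and 112 CPM (0.76 ± 0.26, adjusted p = 0.164, edgeR). Within each of these genes line 1 was the *Nf1*/*p53* dKO line nearest to the *Nf1*/*Cdkn2a* dKO lines. Exons of *Fdft1*, *Scap* and *Hmgcs1* overlap those of genes on the opposite strand over 18.3%, 13.2% and 12.1% of their length, and how the counting treated strand is not given in the sources used here, so reads of the 2 strands may be mixed in these values.

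**Figure D2:**
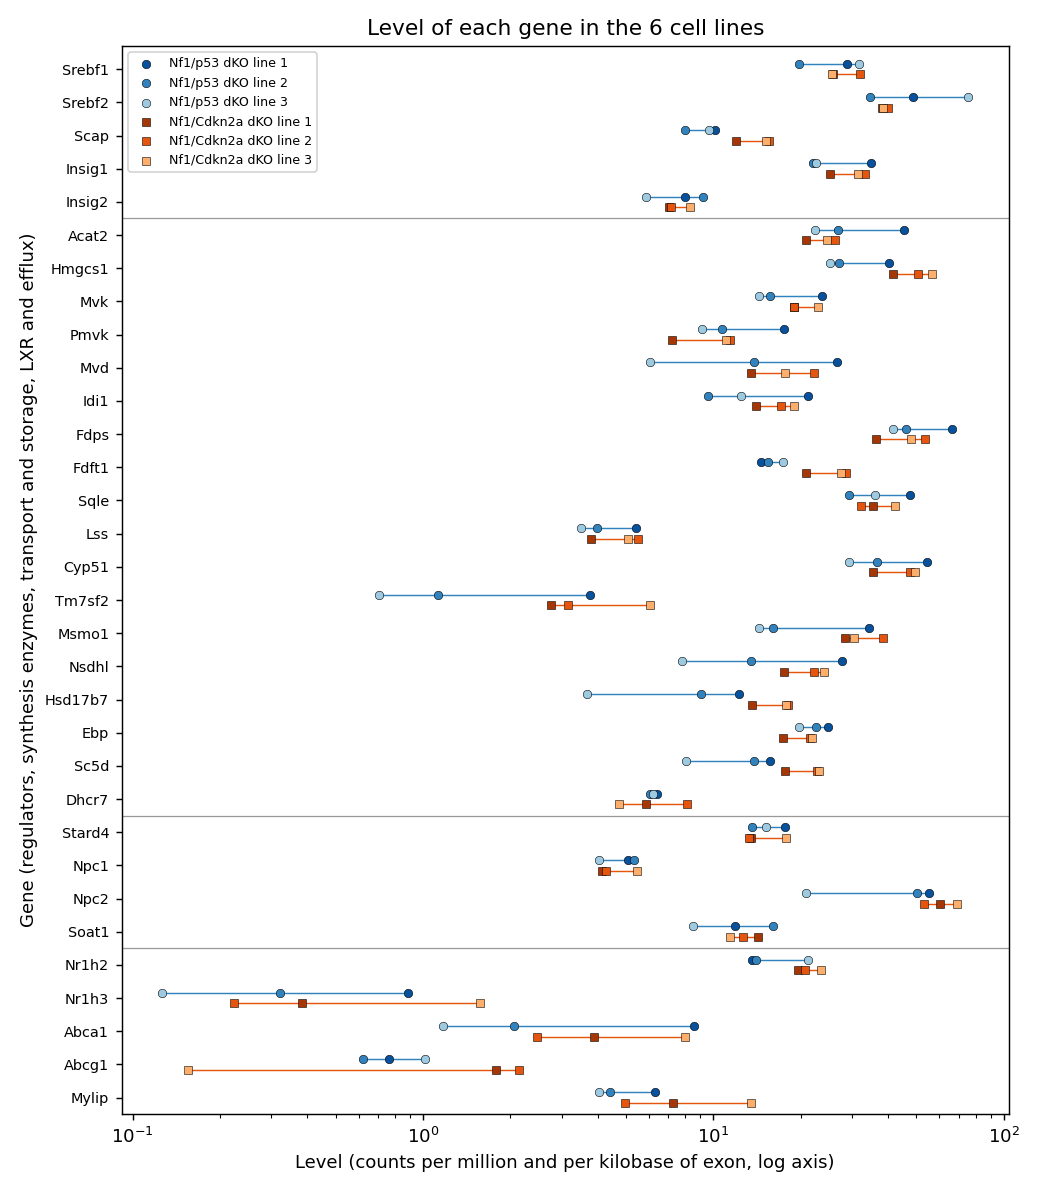
Level of each gene per length in the 6 lines (horizontal axis, RPKM, which is CPM per kilobase of exon, log axis, with circles for *Nf1*/*p53* dKO, squares for *Nf1*/*Cdkn2a* dKO and one point per line). The *Nf1*/*p53* dKO lines spread widely for *Tm7sf2*, *Mvd* and *Nsdhl*, and the LXR and efflux genes at the bottom reach the lowest levels.

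Per length, the transcription factor *Srebf2*, which mainly drives cholesterol synthesis genes, stood at 52.9 ± 20.7 RPKM (CPM per kilobase of exon, mean ± SD, n = 3 lines) in *Nf1*/*p53* dKO lines and at 38.8 ± 0.966 RPKM in *Nf1*/*Cdkn2a* dKO lines. *Srebf1*, whose SREBP-1c product is better known for fatty acid synthesis, was at 26.8 ± 6.36 and 27.7 ± 3.6 RPKM. *Scap* was lower than both, at 9.26 ± 1.14 and 14.2 ± 2 RPKM. Of the retention proteins, *Insig1*, itself an SREBP target, was at 26.5 ± 7.4 and 29.9 ± 4.25 RPKM, and *Insig2* at 7.68 ± 1.69 and 7.51 ± 0.704 RPKM. Of the 5 regulators none was called between the genotypes with edgeR, where 1.8% of all genes were, and their median log2 fold change was 0.05. *Scap* was called with DESeq2 and limma-voom, where 14.4% and 16.6% of all genes were. *Srebf2* had the lowest log2 fold change of the 32 genes (-0.45 ± 0.28, adjusted p = 0.39, edgeR). Its *Nf1*/*p53* dKO lines were at 350, 249 and 542 CPM, and those of the *Nf1*/*Cdkn2a* dKO at 274, 286 and 275 CPM. The *Nf1*/*Cdkn2a* dKO lines thus lay within the range of the other genotype, and line 3 of the *Nf1*/*p53* dKO stood above all the others.

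Of the 18 synthesis enzymes 13 had a log2 fold change above 0 and 5 below, where 48.2% of all genes were above 0. None was called with edgeR, where 1.8% of all genes were. *Fdft1* was called with DESeq2 and 5 enzymes with limma-voom, where 14.4% and 16.6% of all genes were. Early in the pathway, *Acat2*, which condenses acetyl-CoA, was at 80.1 ± 30.6 CPM (mean ± SD, n = 3 lines) over *Nf1*/*p53* dKO lines and 60.8 ± 6.97 CPM over *Nf1*/*Cdkn2a* dKO lines. Its count is uncertain, since 39.1% of its 50-base windows also occur in the near copy *Acat3*. The kinases that act on mevalonate and on its phosphate were *Mvk*, at 47.9 ± 13.6 and 54.1 ± 6.31 CPM, and *Pmvk*, at 21.4 ± 7.68 and 16.9 ± 3.99 CPM. *Mvd*, the decarboxylase that yields isopentenyl diphosphate, was at 28.8 ± 19.3 and 33 ± 8.09 CPM, with the larger spread in the *Nf1*/*p53* dKO. *Idi1*, the isomerase of that product, was at 50.6 ± 21.3 and 58.6 ± 8.74 CPM, and *Fdps*, which joins the units to farnesyl diphosphate, at 216 ± 56 and 194 ± 36.7 CPM. *Idi1* shares 25.3% of its windows with other annotated genes and *Fdps* 26.2%, so their counts may be split.

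Among the enzymes after squalene, *Sqle*, the epoxidase and a rate-limiting step, was at 209 ± 51.5 CPM over *Nf1*/*p53* dKO lines and 203 ± 28.2 CPM over *Nf1*/*Cdkn2a* dKO lines. *Lss*, which folds the epoxide into lanosterol, was at 46.5 ± 10.7 and 51.6 ± 9.55 CPM. The demethylation steps followed, with *Cyp51* at 177 ± 57.3 and 195 ± 33.5 CPM, *Msmo1* at 133 ± 68.3 and 199 ± 33 CPM, and *Nsdhl* at 46.6 ± 29.2 and 60.7 ± 9.49 CPM. *Tm7sf2*, a sterol reductase, had the largest fitted log2 fold change of the 32 genes (1.10 ± 0.67, adjusted p = 0.377, edgeR) and overlapping lines. The late enzymes *Ebp*, the sterol isomerase, and *Dhcr7*, the reductase that turns 7-dehydrocholesterol into cholesterol, were near 0, with log2 fold changes of -0.15 ± 0.16 and 0.01 ± 0.22. In each of these 8 enzymes the lines of the genotypes overlapped. Per length, the highest enzyme levels in the *Nf1*/*p53* dKO were those of *Fdps* (51.3 ± 13.3 RPKM), *Cyp51* (40 ± 13 RPKM) and *Sqle* (37.7 ± 9.28 RPKM), and the lowest was that of *Tm7sf2* (1.86 ± 1.65 RPKM).

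In the transport and storage genes the median log2 fold change was 0.01, and all 4 overlapped between the genotypes. *Stard4*, a soluble carrier of cholesterol, was at 86.3 ± 11.6 and 82.9 ± 14.4 CPM. *Npc1*, which takes cholesterol out of the lysosome, was at 54.4 ± 7.61 and 52.3 ± 8.39 CPM. *Soat1*, which esterifies cholesterol for storage in droplets, was at 119 ± 36.9 and 125 ± 13.4 CPM. *Npc2*, the lysosomal partner of *Npc1*, was at 301, 273 and 113 CPM against 327, 289 and 374 CPM (log2 fold change 0.53 ± 0.36, adjusted p = 0.43, edgeR). For *Npc2* line 3 of the *Nf1*/*p53* dKO stood below the other 5 lines.

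The 5 genes of LXR and efflux had log2 fold changes above 0 throughout, where 48.2% of all genes did. Their median was 0.70, against -0.02 over all genes tested. None had an unadjusted p under 0.05 (edgeR), and the lines of the genotypes overlapped in each. *Nr1h2* (LXR beta), the more widely expressed receptor, was at 54.6 ± 14.3 and 71.2 ± 6.63 CPM. *Nr1h3* (LXR alpha) was at 2.24, 0.806 and 0.318 CPM in *Nf1*/*p53* dKO lines 1 to 3 and at 0.963, 0.563 and 3.94 CPM in *Nf1*/*Cdkn2a* dKO lines 1 to 3. The exporter *Abca1* was at 88.5, 21.3 and 12.1 CPM against 40.3, 25.5 and 82.5 CPM. Line 1 of the *Nf1*/*p53* dKO and line 3 of the *Nf1*/*Cdkn2a* dKO were thus the highest of their genotype for both genes. *Mylip*, which marks lipoprotein receptors for degradation, was at 15.9 ± 3.96 and 27.7 ± 14.3 CPM and had the same 2 lines on top. *Abcg1*, the other exporter, was at 5.56, 4.54 and 7.4 CPM against 13, 15.6 and 1.13 CPM, so that line 3 of the *Nf1*/*Cdkn2a* dKO was the lowest of all 6. The sign of the fitted change rested on single lines for *Abca1* (0.28, from -0.30 to 1.57 with a line left out) and *Nr1h3* (0.70, from -0.55 to 1.69). For *Abca1* it was negative without *Nf1*/*p53* dKO line 2, without *Nf1*/*p53* dKO line 3 and without *Nf1*/*Cdkn2a* dKO line 3 (-0.02, -0.14 and -0.30). For *Nr1h3* it was negative without *Nf1*/*Cdkn2a* dKO line 3.

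**Figure D3:**
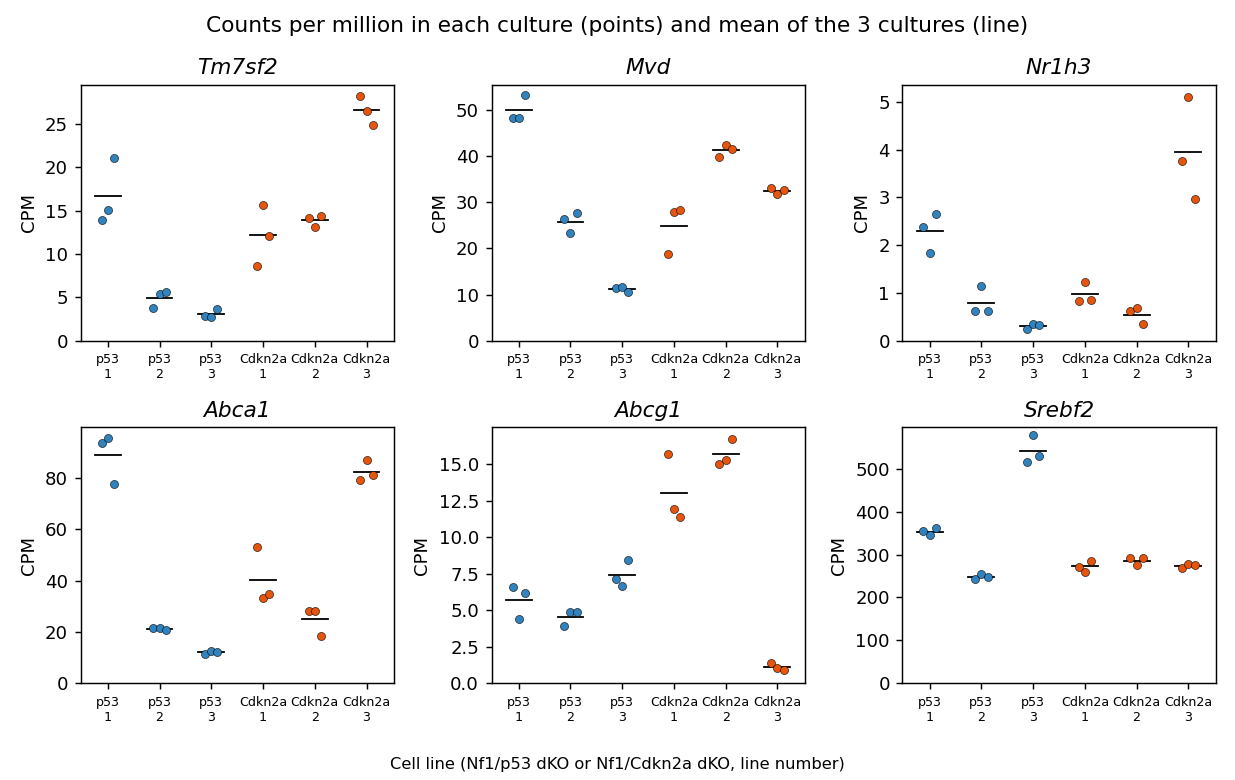
Level in each of the 18 cultures (points, CPM, axes from 0) and the mean of the 3 cultures of a line (bars) for the 5 genes with the widest range between lines of one genotype and for *Srebf2*. Cultures of a line lie close together, and *Abca1* runs from 12.1 to 88.5 CPM over the *Nf1*/*p53* dKO lines, while *Srebf2* is highest in *Nf1*/*p53* dKO line 3.

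The second comparison asked how far lines of the same genotype differ, each line being 1 tumor. Between the 3 *Nf1*/*p53* dKO lines 31 of the 32 genes were called at an adjusted p under 0.05 (edgeR, line as a factor over the 18 cultures), against 73.2% of all 14690 genes in that fit. *Dhcr7* was the exception. Between the 3 *Nf1*/*Cdkn2a* dKO lines 30 were called, against 56.8% of all genes, with *Srebf2* and *Insig2* as the exceptions, and 29 without culture 1 of line 1 (56.3% of all genes), where *Ebp* was the further exception. These p-values measure the spread between cultures of a line, not between tumors. In the median member 96.8% of the variance over the *Nf1*/*p53* dKO cultures lay between lines, and 83.9% in the median gene. Over the *Nf1*/*Cdkn2a* dKO cultures these shares were 84.9% and 55.3%, and 90.2% and 62.2% without culture 1 of line 1. The ratio of the highest to the lowest line had a median of 1.64 for the members, 1.89 for the enzymes and 1.60 for all genes in the *Nf1*/*p53* dKO. In the *Nf1*/*Cdkn2a* dKO these medians were 1.35, 1.36 and 1.38 (1.43 for the enzymes and 1.39 for all genes without that culture). By this ratio the members were thus close to the median gene. The background of all genes was not matched to the members for level.

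The ratio between lines was largest for genes of LXR and efflux and for 2 enzymes. In *Abcg1* it was 13.9 between the *Nf1*/*Cdkn2a* dKO lines, with line 3 at 0.881 to 1.40 CPM over its cultures and line 2 at 15 to 16.7 CPM. In *Abca1* it was 7.30 between the *Nf1*/*p53* dKO lines, with line 1 at 77.5 to 95.3 CPM and line 3 at 11.3 to 12.7 CPM. *Nr1h3*, at low levels, spread by 7.05 between the *Nf1*/*p53* dKO lines and by 7.01 between the *Nf1*/*Cdkn2a* dKO lines. No culture of a high line overlapped with a culture of the low line in these 3 genes. *Tm7sf2* spread by 5.33, with 16.5, 4.95 and 3.10 CPM in *Nf1*/*p53* dKO lines against 12.1, 13.9 and 26.7 CPM in the other genotype. *Mvd* spread by 4.41, with lines at 49.5, 25.7 and 11.2 CPM, and at 25, 41.2 and 32.7 CPM in the *Nf1*/*Cdkn2a* dKO. Exons of *Tm7sf2* overlap those of *Vps51* on the same strand over 12.1% of their length. *Dhcr7*, by contrast, was at 37.3, 35.2 and 35.9 CPM in *Nf1*/*p53* dKO lines 1 to 3, a ratio of 1.06, though between *Nf1*/*Cdkn2a* dKO lines it was at 34.1, 47.2 and 27.6 CPM.

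Most synthesis enzymes shared the line with the highest level in one genotype and the line with the lowest level in the other. Among the *Nf1*/*p53* dKO lines, line 1 was the highest for 17 of the 18 enzymes, against 31.2% of all genes, and line 3 the lowest for 14, against 38.7%. *Fdft1* was the exception, with line 1 lowest and line 3 highest. Among the *Nf1*/*Cdkn2a* dKO lines, line 1 was the lowest for 15 of the 18, against 29.1% of all genes, and lines 2 and 3 were the highest for 9 each. Without culture 1 of that line the count was again 15. The summed level of the 18 enzymes was 1960, 1280 and 1150 CPM in *Nf1*/*p53* dKO lines 1, 2 and 3 and 1480, 1880 and 1890 CPM in *Nf1*/*Cdkn2a* dKO lines 1, 2 and 3. Line 1 of the *Nf1*/*p53* dKO thus stood above the *Nf1*/*Cdkn2a* dKO lines in this sum, and its other lines below them. Without its culture 1, *Nf1*/*Cdkn2a* dKO line 1 was at 1440 CPM. The order of lines is a count over genes of shared libraries, and these were examined with the values in view.

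Pairs of lines were also tested (edgeR, adjusted over all genes within each pair). Between *Nf1*/*p53* dKO lines 1 and 2, 15 enzymes were higher in line 1 and none lower, where 23.5% and 22.3% of all genes were. The median log2 difference of the enzymes was 0.60. Between lines 1 and 3, 16 enzymes were higher in line 1 and 1 lower, where 31.2% and 28.2% of all genes were, with a median of 0.84. Between lines 2 and 3 the split was 9 to 3, where 30.8% and 29% of all genes were higher and lower in line 2, with a median of 0.19. Among the *Nf1*/*Cdkn2a* dKO lines, no enzyme was higher in line 1 than in line 2 and 15 were lower (17.7% and 14.7% of all genes), with a median of -0.39. Against line 3, 1 was higher in line 1 and 16 were lower (19.3% and 20.5%), again with a median of -0.39. Without culture 1 of line 1 no enzyme was higher in line 1, and 14 were lower than in line 2 (16.2% and 13.5% of all genes higher and lower, median -0.43) and 14 lower than in line 3 (18.4% and 19.6%, median -0.38). Between lines 2 and 3, 4 enzymes were higher in line 2 and 4 were lower (21.7% and 25.7%), with a median of 0.00. In the median enzyme, line 1 thus lay above its sisters in the *Nf1*/*p53* dKO and below them in the *Nf1*/*Cdkn2a* dKO. Line 3 of the *Nf1*/*p53* dKO also lay below line 2 in that median and was the lowest for 14 of the 18 enzymes.

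**Figure D4:**
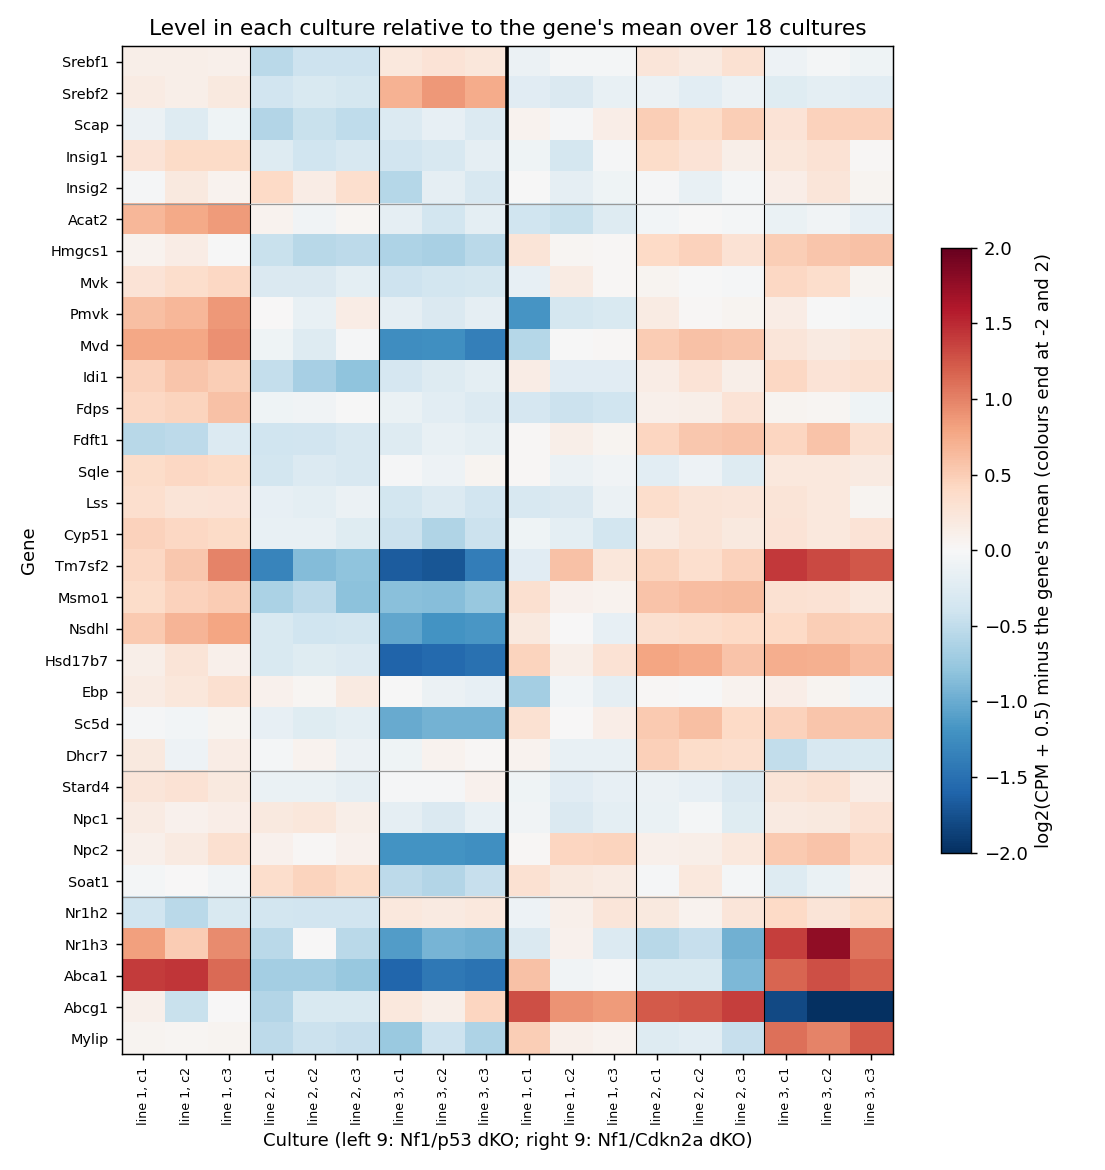
Level of each gene in the 18 cultures, as log2(CPM + 0.5) minus the gene's mean over all cultures (red above, blue below, colours end at -2 and 2). *Nf1*/*p53* dKO line 1 is red or pale in the enzyme rows except that of *Fdft1* and line 3 blue in most, while *Srebf2* is reddest in line 3.

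The 5 regulators shared these lines in part. *Scap* and *Insig1* were highest, among the *Nf1*/*p53* dKO lines, in line 1. Among the *Nf1*/*Cdkn2a* dKO lines 4 of the 5 were lowest in line 1, against 29.1% of all genes, *Srebf1* being the exception. For 2 of these 4 line 1 was nearly level with the next line. These were *Srebf2* (274 against 275 CPM in line 3, adjusted p = 0.92, edgeR) and *Insig2* (24.5 against 24.8 CPM in line 2, adjusted p = 0.926, edgeR). *Srebf2* was higher in *Nf1*/*p53* dKO line 3 than in line 1 by 0.62 on the log2 scale (adjusted p = 2.54e-10, edgeR), where 14 of the enzymes were lowest, and did not differ detectably between the *Nf1*/*Cdkn2a* dKO lines (ratio 1.05, adjusted p = 0.474, edgeR). *Insig1* was at 108, 68.2 and 69.5 CPM against 77.7, 103 and 97.4 CPM. *Insig2* was at 27.7, 32 and 20.4 CPM and at 24.5, 24.8 and 28.9 CPM. *Srebf1* was at 163, 111 and 179 CPM and at 145, 180 and 144 CPM, so its lines 1 and 3 of the *Nf1*/*Cdkn2a* dKO were almost level. Of the 5 genes of LXR and efflux, *Abca1*, *Nr1h3* and *Mylip* had 1 order of lines in common, namely 1, 2, 3 from high to low among *Nf1*/*p53* dKO lines and 3, 1, 2 among *Nf1*/*Cdkn2a* dKO lines. *Abcg1* and *Nr1h2* did not share it. Both were highest, among the *Nf1*/*p53* dKO lines, in line 3 (7.4 and 71 CPM), and in *Nf1*/*Cdkn2a* dKO line 3 *Abcg1* was lowest (1.13 CPM) and *Nr1h2* highest (78.6 CPM). The 3 genes with 1 order were singled out after their values were seen, and not every step of that order was called. *Mylip* differed by 0.12 on the log2 scale between *Nf1*/*p53* dKO lines 2 and 3 (adjusted p = 0.398, edgeR). *Nr1h3*, at low counts, differed by 0.79 between *Nf1*/*Cdkn2a* dKO lines 1 and 2 (adjusted p = 0.144, edgeR).

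Proliferation markers were highest in *Nf1*/*p53* dKO line 3. The summed level of 10 such genes was 2030, 2010 and 3440 CPM in lines 1, 2 and 3 of the *Nf1*/*p53* dKO, so that lines 1 and 2, which differed in the summed enzymes, were almost level, and each of the 10 genes was highest in line 3 of that genotype. In the *Nf1*/*Cdkn2a* dKO it was 2110, 1770 and 2020 CPM. Between the genotypes all 10 had a log2 fold change below 0 (median -0.33, none called, 1 at an unadjusted p under 0.05, edgeR). In the summed level, however, only line 3 of the *Nf1*/*p53* dKO stood above all the *Nf1*/*Cdkn2a* dKO lines. Other cell types were rare in the RNA. Summed leukocyte markers were at 14 to 36.1 CPM, led by *Cd14*, with *Adgre1* at 0 in 5 of the 6 lines, and summed endothelial markers at 0.704 to 2.13 CPM. *Nf1*/*p53* dKO line 2 had the highest summed Schwann cell markers (74.7 CPM, against 1.48 to 3.57 CPM in the others, mostly *Ngfr*). Its summed adipocyte markers were also the highest (23.8 CPM, against 0.443 to 8.29 CPM). They were mostly *Fabp4* (15 CPM) and *Pparg* (8.78 CPM), with *Adipoq*, *Plin1* and *Cidec* at 0 in that line. The part of proliferation rate and of these markers in the results was not tested. Since the samples are bulk RNA, fewer cells of a kind and less RNA per cell cannot be told apart.

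Promoter sequence was examined because most enzymes shared the line with the highest or the lowest level. RefSeq promoter windows (GRCm38.p6, 250 bases before the annotated start) were held for 26 of the 32 genes, among them 15 of the 18 enzymes, and were searched on both strands for 4 motifs. A gene counted as matched where any of its annotated starts held the motif. The CCAAT box (CCAAT), bound by NF-Y, a partner of SREBP at many sterol genes, was present in 14 of 15 enzymes and in 21 of 26 members, against 37.5% of all 27025 genes and 40.1% of the 10632 tested genes with a window. The enzyme without it was *Acat2*. The enzymes held 29 matches in all, at a median position of -60 from the start, 20 of them within 100 bases, and 9 enzymes had at least 2. The GC box (GGGCGG), bound by SP1, was in 14 of 15 enzymes and 22 of 26 members, against 35.4% of all genes and 62.6% of the tested genes. The E-box (CACGTG) was in 3 enzymes and 6 members, namely *Hsd17b7*, *Sc5d*, *Dhcr7*, *Scap*, *Insig1* and *Abca1*, against 6.86% and 9.69%. A core of the sterol regulatory element (TCACNCCAC) was in 1 member, *Hmgcs1*, and in 1.22% of all genes. The element varies in sequence, so the absence of these letters says nothing about SREBP binding.

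**Figure D5:**
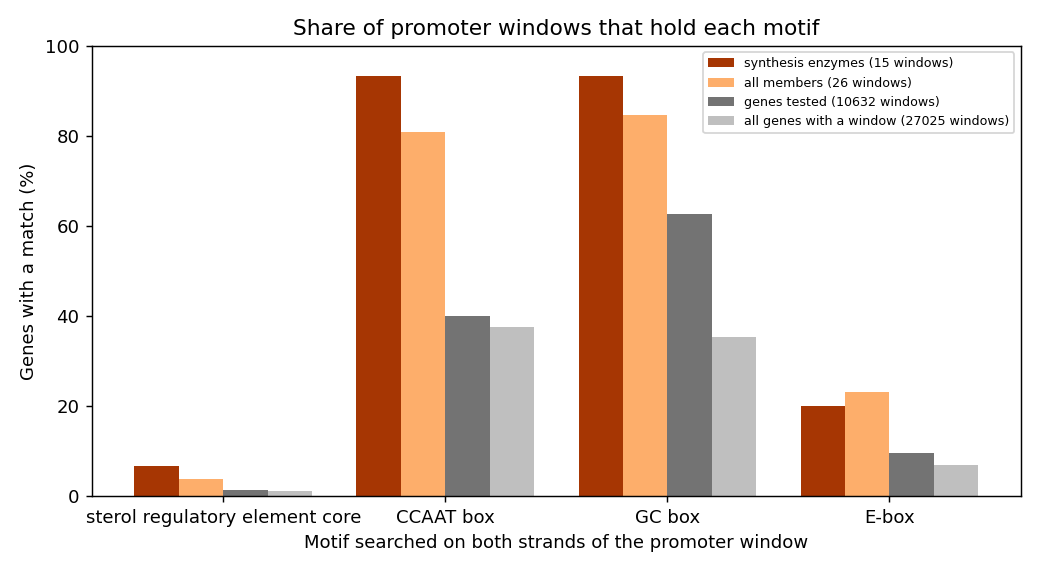
Share of promoter windows with at least 1 match to each motif (vertical axis, percent, from 0) for the 15 enzymes, the 26 members, the 10632 tested genes and all 27025 genes with a window. The CCAAT bar of the enzymes reaches 93.3%, against 40.1% in the tested genes, and the bars of the sterol regulatory element core stay at 6.67% or below.

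The promoter of *Hmgcs1* is shown as the one window with the sterol regulatory element core, and those of *Tm7sf2*, *Mvd*, *Nsdhl* and *Ebp* because, among enzymes with a single annotated start, the first 3 spread most and the last least between the *Nf1*/*p53* dKO lines. These 4 were chosen after their values were seen. Each runs from 250 bases before the start to the base before it, on the gene's own strand, and capitals mark CCAAT or its complement ATTGG and, in *Hmgcs1*, the core TCACCCCAC. The windows lie upstream of the RefSeq starts, at chr13:119690101-119690350 (+ strand), chr19:6067851-6068100 (- strand), chr8:122443423-122443672 (- strand), chrX:72918271-72918520 (+ strand) and chrX:8193513-8193762 (- strand), in that order. In GENCODE M21 the *Tm7sf2* gene begins further upstream, so its window lies within that gene model.
Hmgcs1: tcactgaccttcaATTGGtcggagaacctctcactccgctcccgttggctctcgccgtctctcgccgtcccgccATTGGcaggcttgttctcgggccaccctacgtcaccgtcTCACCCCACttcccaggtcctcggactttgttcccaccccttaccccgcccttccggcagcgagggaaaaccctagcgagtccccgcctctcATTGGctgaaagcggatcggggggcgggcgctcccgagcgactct
Tm7sf2: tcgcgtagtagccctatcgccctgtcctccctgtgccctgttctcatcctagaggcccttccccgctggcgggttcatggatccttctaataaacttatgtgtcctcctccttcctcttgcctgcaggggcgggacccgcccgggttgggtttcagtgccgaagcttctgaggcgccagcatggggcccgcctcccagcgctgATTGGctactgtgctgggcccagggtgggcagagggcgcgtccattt
Mvd: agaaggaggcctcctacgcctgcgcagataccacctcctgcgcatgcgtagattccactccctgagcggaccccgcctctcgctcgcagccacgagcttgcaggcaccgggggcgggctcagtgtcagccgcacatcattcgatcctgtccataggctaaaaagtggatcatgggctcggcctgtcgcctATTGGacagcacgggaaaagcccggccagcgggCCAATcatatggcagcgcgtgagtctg
Nsdhl: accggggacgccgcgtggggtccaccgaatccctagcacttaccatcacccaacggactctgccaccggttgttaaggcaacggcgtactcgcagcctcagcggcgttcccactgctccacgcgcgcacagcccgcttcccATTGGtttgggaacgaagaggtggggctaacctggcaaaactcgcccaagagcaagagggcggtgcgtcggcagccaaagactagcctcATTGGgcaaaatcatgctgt
Ebp: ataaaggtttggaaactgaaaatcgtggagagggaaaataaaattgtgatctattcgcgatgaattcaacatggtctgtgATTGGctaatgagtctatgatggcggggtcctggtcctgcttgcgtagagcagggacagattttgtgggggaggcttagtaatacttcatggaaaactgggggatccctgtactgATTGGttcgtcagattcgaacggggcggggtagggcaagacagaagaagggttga

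In *Hmgcs1* the core starts at -137, between CCAAT matches at -176 and -45, with a further match at -237. *Tm7sf2*, with the widest range between lines, has a single CCAAT match at -47, and *Mvd* has matches at -60 and -27. *Ebp*, with a ratio of 1.27 between the *Nf1*/*p53* dKO lines, has 2 matches as well, at -170 and -55, as does *Nsdhl* at -109 and -20, with a ratio of 3.54. Because most of these 5 windows were picked by their range between lines, they cannot relate the number of matches to that range. Any such relation was not tested.

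The rest of the pathway was read from 5 lists of further genes, of which 49 were in the table and 46 had enough counts. None was called between the genotypes with edgeR, 12 had an unadjusted p under 0.05 (edgeR, 26.1% against 22.4% of all genes) and DESeq2 on the 6 line sums called 7 (15.2% against 14.4% of all genes). Lines of the genotypes did not overlap in 15, or 32.6%, where 31.4% of all genes did not. Of these 15, 11 were higher in the *Nf1*/*Cdkn2a* dKO and 4 lower. Over all genes, 14.8% did not overlap with the *Nf1*/*Cdkn2a* dKO higher and 16.6% with it lower. The median log2 fold change of the 46 genes was 0.06. Of the 10 genes of SREBP processing and sterol sensing, 3 did not overlap with the *Nf1*/*Cdkn2a* dKO higher and 1 with it lower. The largest difference was in *Pgrmc1*, a heme-binding membrane protein that interacts with CYP51, at 125, 156 and 100 CPM against 239, 230 and 346 CPM (log2 fold change 1.10 ± 0.24, adjusted p = 0.0694, edgeR). Of the 10 genes of isoprenoid and further sterol synthesis 3 did not overlap, 2 higher and 1 lower, and of the 6 of lipoprotein uptake and lysosomal release 2, both higher. Of the 10 genes of intracellular sterol transport 4 did not overlap, all higher in the *Nf1*/*Cdkn2a* dKO.

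The largest fitted differences were in genes of low level among the 10 tested genes of esterification, oxysterols and LXR targets. Of these 10 genes 2 did not overlap, both lower in the *Nf1*/*Cdkn2a* dKO, where 16.6% of all genes did not overlap with it lower. *Soat2*, the second cholesterol acyltransferase, was at 1.34, 1.30 and 0.886 CPM in *Nf1*/*p53* dKO lines against 0.273, 0.274 and 0.172 CPM in *Nf1*/*Cdkn2a* dKO lines (log2 fold change -2.29 ± 0.42, adjusted p = 0.0521, edgeR). It passed the threshold under total-count scaling, under upper-quartile factors and where every line had to hold 10 counts. *Cyp7b1*, which hydroxylates oxysterols, was at 0.722, 5.28 and 0.803 CPM against 0.305, 0.101 and 0.109 CPM (-3.71 ± 1.02, adjusted p = 0.105, edgeR), with line 2 of the *Nf1*/*p53* dKO far above the rest. *Soat1*, the acyltransferase of most tissues, was at 83 CPM or more in every line.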

How the data were processed

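RNA of 18 cultures from 6 MPNST cell lines was sequenced commercially. Raw counts were deposited, as whole numbers of reads per gene and culture with no normalization. The submitters' processing notes name CASAVA, STAR 2.5, DESeq2 1.14.1 and the build GRCm38 (mm10), with no roles. The counting tool, its annotation and its use of strand are not given in the sources used here. Genotype, line and culture were taken from the sample titles.

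Cultures of a line share a tumor, so their counts were added up before testing. The edgeR filter filterByExpr was used with a count minimum of 10 and a total of 15, TMM gave the scaling, and genes were tested two-sided with the edgeR 4.0.16 quasi-likelihood test and Benjamini-Hochberg adjustment over all genes tested, at 0.05 (R 4.3.3, limma 3.58.1, DESeq2 1.42.0, Python 3.11.15). Positive log2 fold changes are higher in the *Nf1*/*Cdkn2a* dKO. The standard error is the size of the log2 fold change divided by the square root of F. Lines of a genotype were compared on the 18 cultures with line as a factor, together and in pairs. CPM are TMM-scaled counts per 1000000. RPKM also divide by the merged exon length of GENCODE M21 (GRCm38), which gives the gene positions. That length covers the exons of every annotated transcript of a gene, so the order of genes by RPKM depends on the annotation. No column of per-sample counts was left unused. The study's statistics section names DESeq2 and a pair of biological replicates per condition, where its RNA-seq methods and the labels give 3 lines in 3 cultures each.

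The members, gene lists and tests were chosen with earlier results of these data known. All members are named. Members called, those with no overlap and the 5 with the widest range between lines are given in every line, and of the further pathway genes the called ones or else the 3 with the largest log2 fold change. The line pairs and line orders were added with values in view. Only the edgeR tests between genotypes and between the lines of a genotype were tried on simulated data. The other steps were not. Same-numbered lines did not deviate together (r = -0.117, -0.13 and -0.0832), nor did same-numbered cultures (median r = -0.00372). Promoter windows are from RefSeq, matched by symbol. A few results on single genes are left out.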

Additional observations from a re-analysis of the deposited data

Results flagged for a closer look

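In culture 1 of *Nf1*/*Cdkn2a* dKO line 1, *Pmvk* was at 7.74 CPM and *Ebp* at 30.1 CPM. Each lay further below the other 8 *Nf1*/*Cdkn2a* dKO cultures than Dixon's 95% limit for 9 samples allows. The sister cultures of that line were at 14.2 and 14.7 CPM for *Pmvk* and at 46.6 and 43.1 CPM for *Ebp*. Of 64 groups of cultures examined, 32 genes in each genotype, these 2 passed the limit. For independent values about 1 in 20 groups would pass by chance, but cultures of the same line are not independent. The 2 values come from the culture that differed most from its sisters over all genes.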

How the results depend on the processing

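No member was called between the genotypes with other size factors, with other filters on counts or with any line left out. DESeq2 on the 6 lines called 2171 genes (14.4%), 2 of the 32 members and 7 further pathway genes (15.2%). In tests on the 18 cultures 13110 genes passed the filter, all 32 members among them. Tests that count cultures of 1 tumor as separate called 6096 of these genes, 11 members and 21 further pathway genes with edgeR. With DESeq2 they called 6409, 12 and 24. limma-voom with line as a random effect called 2173 (16.6%), 6 and 6. Total counts called 423 genes, and 1 further pathway gene (*Soat2*), which upper-quartile factors and the filter of at least 10 counts in every line also called (1 each). The line number as a replicate block called 0 genes, against 274 without it, and left no member called. The culture number as a replicate block in edgeR on the 18 cultures called 5681 of the 13110 genes, 10 members and 17 further pathway genes. It did not change the calls between lines (31 and 30 members). Neither number is shown to pair samples. With each line left out, genes called ranged from 0 to 172 (172, 27 and 107 without *Nf1*/*p53* dKO lines 1, 2 and 3, and 0, 2 and 23 without *Nf1*/*Cdkn2a* dKO lines 1, 2 and 3), members with no overlap from 5 to 14 (14 without *Nf1*/*p53* dKO line 1, 8 without its line 3 and 8 without *Nf1*/*Cdkn2a* dKO line 2), and the enzyme median from 0.04 to 0.52 on the log2 scale. With fewer lines no overlap is more frequent, at 38.5% to 43.1% of all genes. The causes were not tested. The enzyme and member medians moved by less than the spread between lines under every other setting.

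Of 576 fold changes of members under other settings 34 changed sign, none of them called. Outside the left-out lines these were *Dhcr7* (from 0.01 to -0.12 with total counts, -0.04 with upper-quartile factors, -0.01 with at least 10 counts in every line and on the 18 cultures with either tool or the culture number as a replicate block, -0.02 with limma-voom and without culture 1 of *Nf1*/*Cdkn2a* dKO line 1, and -0.03 with the line number as a replicate block), and, with total counts, *Srebf1* (-0.09) and *Soat1* (-0.05). With a line left out the sign changed within -0.18 to 0.84 for *Mvd*, -0.04 to 0.43 for *Cyp51*, 0 to 0.60 for *Idi1*, -0.28 to 0.07 for *Fdps*, -0.18 to 0.16 for *Sqle*, -0.22 to 0.18 for *Dhcr7*, -0.20 to 0.05 for *Stard4*, -0.19 to 0.03 for *Npc1*, -0.12 to 0.20 for *Srebf1*, -0.19 to 0.13 for *Insig2*, -0.12 to 0.34 for *Soat1*, -0.30 to 1.57 for *Abca1* and -0.55 to 1.69 for *Nr1h3*. Orders of lines kept 16 or 17 enzymes highest in *Nf1*/*p53* dKO line 1 and 15 or 16 lowest in *Nf1*/*Cdkn2a* dKO line 1 under every scaling and left-out culture. Members called between lines stayed at 29 to 31 and 25 to 30.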
